A study of Mus musculus with 6 samples.

Results

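Small nucleolar RNAs (snoRNAs) and small Cajal body RNAs (scaRNAs) were followed here through the hypothalamus libraries of the mouse line Lhx5-TRAP DT154. They were taken as every row of the count files whose symbol begins with Snord, Snora or Scarna and a digit, which gave 111 of 32531 gene rows: 68 Snord, 34 Snora and 9 Scarna rows. The line carries an EGFP-tagged ribosomal protein Rpl10a driven by Lhx5, a LIM-homeodomain transcription factor, and all animals were untreated adult controls. Tagged polysomes were pulled from homogenised hypothalamus with anti-EGFP antibodies (IP, 3 libraries), and the second group is the unbound RNA of the same tissue and line (3 libraries). The sample titles call that second group Input, a difference the labels do not settle, and it is called unbound here. The sources used here do not say whether replicates came from separate animals or pools, so the p-values measure the spread between these libraries.

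SnoRNAs guide chemical modification of other RNAs. C/D box snoRNAs (Snord) pair with fibrillarin and direct ribose methylation of ribosomal RNA, H/ACA box snoRNAs (Snora) pair with dyskerin and direct the change of uridine to pseudouridine, and scaRNAs do the same for spliceosomal RNAs in Cajal bodies. Both kinds work in the nucleus, and in mammals most are cut from introns of host genes, many of which encode ribosomal proteins or are long noncoding RNAs. TRAP is designed to recover messages bound by tagged ribosomes, and mature snoRNAs are not translated.

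The rows turned out to hold few reads. Of the 111 rows, 88 had at least 1 read in at least 1 library, and all 6 libraries together held 2526 reads on them, out of 32471045 to 46293837 gene reads per library. The most abundant row held 264 reads. A count of 0 in a library allows up to 3 reads, which is 0.0667 to 0.0964 CPM in the IP libraries and 0.0719 to 0.0872 CPM in the unbound libraries. CPM stands for reads per 1000000 gene reads after TMM scaling, and these limits, like the counting intervals below, cover counting error only. No source used here gives the library kit or read length, so how well RNAs this short were recovered is unknown.

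The sequences below are those of the rows on which the results turn. The first 3 lie in 1 host gene, Rpl23a, and differ in how they split between IP and unbound RNA. The next 3 are H/ACA snoRNAs from introns of Tpt1, Kansl2 and Htr2c with few or no IP reads. Snora16a, Snora44 and Snora61 share the host Snhg12 and went opposite ways. Snora7a and Snord104 did not pass the test, and Snord64 lies in the imprinted Prader-Willi region. In the Snord sequences capitals mark TGATG, the core of the C box, searched in the first 20 bases, and CTGA, the D box, searched in the last 15 bases. In the Snora sequences capitals mark ACA where it stands 3 bases before the 3′ end. All are the annotated RNA strand, 5′ to 3′, from the GENCODE M21 transcripts (GRCm38, the assembly also called mm10).
Snord42b: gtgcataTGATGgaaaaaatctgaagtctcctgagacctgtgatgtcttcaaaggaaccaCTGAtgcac
Snord42a: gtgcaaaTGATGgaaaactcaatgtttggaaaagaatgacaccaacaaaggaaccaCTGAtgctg
Snord4a: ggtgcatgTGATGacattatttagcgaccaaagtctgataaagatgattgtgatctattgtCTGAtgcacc
Snora31: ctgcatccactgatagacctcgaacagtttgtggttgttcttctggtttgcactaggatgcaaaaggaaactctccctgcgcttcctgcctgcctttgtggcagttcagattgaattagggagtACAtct
Snora34: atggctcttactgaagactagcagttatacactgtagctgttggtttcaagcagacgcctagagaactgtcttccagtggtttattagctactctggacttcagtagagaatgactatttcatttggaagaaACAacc
Snora35: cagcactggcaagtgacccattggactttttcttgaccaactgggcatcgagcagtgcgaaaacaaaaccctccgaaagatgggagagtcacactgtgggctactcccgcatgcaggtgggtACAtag
Snora16a: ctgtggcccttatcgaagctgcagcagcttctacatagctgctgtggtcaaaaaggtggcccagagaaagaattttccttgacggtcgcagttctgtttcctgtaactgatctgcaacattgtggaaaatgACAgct
Snora44: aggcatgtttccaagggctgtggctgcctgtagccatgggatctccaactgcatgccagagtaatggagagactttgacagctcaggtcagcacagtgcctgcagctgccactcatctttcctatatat
Snora61: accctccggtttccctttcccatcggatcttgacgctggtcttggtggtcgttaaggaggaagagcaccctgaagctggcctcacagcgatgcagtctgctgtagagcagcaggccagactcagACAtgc
Snora7a: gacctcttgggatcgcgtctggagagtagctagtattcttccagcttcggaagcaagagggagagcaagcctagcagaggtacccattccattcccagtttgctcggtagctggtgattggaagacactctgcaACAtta
Snord104: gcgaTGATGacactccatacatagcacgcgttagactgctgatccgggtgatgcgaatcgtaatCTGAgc
Snord64: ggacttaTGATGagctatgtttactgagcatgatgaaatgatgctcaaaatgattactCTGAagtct

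The annotated sequences carry the boxes that the names call for. TGATG near the start together with CTGA near the end was found in 52 of 67 Snord sequences (77.6%), in 0 of 34 Snora sequences and in 4 of 9 Scarna sequences. ACA at 3 bases from the end was found in 28 of 34 Snora sequences (82.4%), in 0 of 67 Snord sequences and in 2 of 9 Scarna sequences. On the opposite strand the Snord boxes were found in 0 sequences and ACA in 1. Snord sequences had a median length of 79 bases, Snora sequences 132 and Scarna sequences 140. The row Snord116 has no entry of that name in the annotation and 0 reads in every library. Near-identical copies such as those of that family send reads to the entry for reads that align to more than 1 place, so rows of repeated snoRNAs are uncertain.

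Far fewer of these rows had a read in the IP libraries than in the unbound libraries. The IP libraries counted 28, 20 and 29 of the 111 rows and the unbound libraries 73, 72 and 78. Every unbound library counted at least 72 rows and no IP library more than 29, so the groups did not overlap. The number of all gene rows counted in each library was not set beside these. Of the 88 rows with a read, 53 had reads in unbound libraries alone and 1 in IP libraries alone. Over all rows with a read the shares were 10.7% and 2.16%, not matched for count. At an equal depth of 32471045 gene reads the expected numbers were 26.1, 20 and 26.2 rows in IP and 71.1, 71.8 and 74.6 in unbound libraries. The rows counted in IP were also less varied for the same number of snoRNA and scaRNA reads. At 92 such reads in each library, the number in the smallest, the expected rows were 23.1, 20 and 21.7 in IP and 40.6, 39.4 and 37.2 in unbound libraries.

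The summed level of all rows was 4.32, 2.96 and 5.15 CPM in the IP libraries and 15.9, 15.4 and 20.5 CPM in the unbound libraries. The mean was 4.14 ± 1.11 CPM in the IP libraries against 17.3 ± 2.81 CPM (SD, n = 3), 4.17 times higher in unbound RNA, and the highest IP library stood below the lowest unbound library. The classes went the same way by different amounts. Snord rows averaged 2.81 ± 0.85 CPM with IP and 8.63 ± 1.61 CPM with unbound RNA, 3.07 times higher in unbound. Snora rows averaged 1.21 ± 0.33 and 7.46 ± 1.07 CPM, 6.19 times higher. Scarna rows averaged 0.125 ± 0.037 and 1.18 ± 0.32 CPM, 9.46 times higher, on 3 to 7 reads per IP library. No difference between the classes was tested. One Snord row, Snord42b, held 28.0% ± 6.96 of all snoRNA and scaRNA reads in IP libraries and 3.94%, 6.97% and 7.72% in unbound libraries. Without it the summed levels of all other rows were 3.01 ± 0.95 and 16.2 ± 2.42 CPM, 5.37 times higher in unbound. The Snord ratio above includes this row and was not computed without it.

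**Figure D1:**
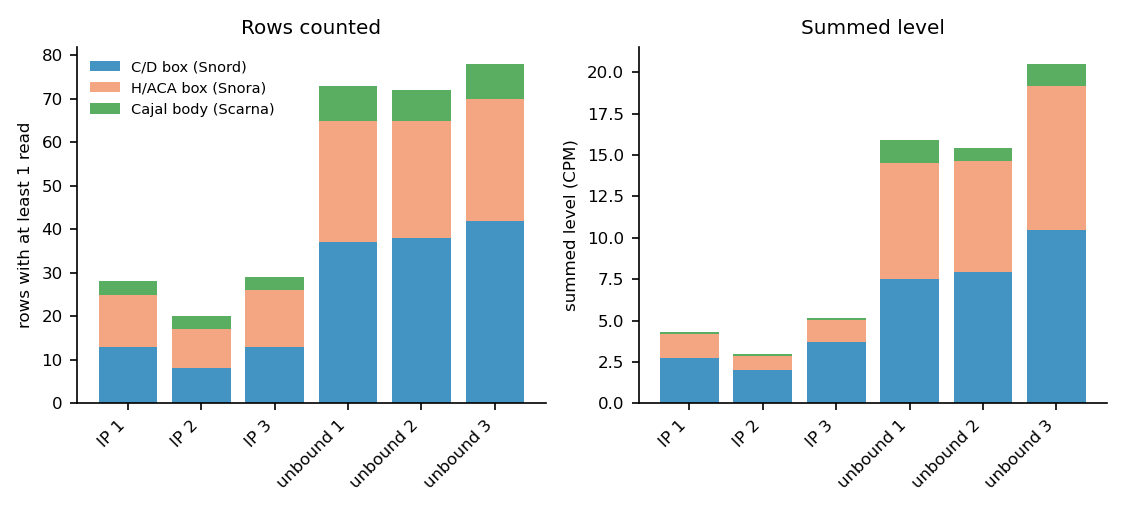
Number of snoRNA and scaRNA rows with at least 1 read (left) and their summed level in CPM (right) in each of the 6 libraries, stacked by class, with 1 bar per library. The 3 IP libraries count 20 to 29 rows at 2.96 to 5.15 CPM and the 3 unbound libraries 72 to 78 rows at 15.4 to 20.5 CPM.

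Several other features of the libraries moved with these levels. Reads ambiguous between features, which are counted on no row, were 1.61% ± 0.03 of all entries in IP and 8.31% ± 1.07 in unbound libraries. Reads in no feature were 7.74% ± 0.23 and 13.1% ± 0.49. Reads that aligned to more than 1 place, which are also counted on no row, went the other way, at 44.5% ± 0.67 in IP and 32.5% ± 0.62 in unbound libraries. All 7 nuclear long noncoding RNAs that were tested, of 8 listed, fell, with a summed level of 949 to 1544 CPM in IP and 27213 to 34570 CPM in unbound libraries. Of the listed markers all 8 of astrocytes, all 8 of oligodendrocytes and all 7 of microglia fell in IP, with summed levels of 144 to 332 against 1414 to 1742 CPM, 323 to 533 against 3413 to 6580 CPM and 4.93 to 11.0 against 50.7 to 72.8 CPM. Of 7 ependymal and choroid plexus markers 5 fell, and of 6 endothelial and mural markers tested 4 fell, with no rises. Of 12 hypothalamic neuron markers 6 rose. Lhx5, whose driver marks the tagged cells, had 2385, 1808 and 3171 reads in the IP libraries against 81, 64 and 262 (log2 4.18, SE 0.49, edgeR adjusted p = 8.2e-04). The part of these differences in the snoRNA result was not tested, and in bulk libraries fewer cells of a type and less RNA per cell cannot be told apart. Unbound replicate 3 stood apart in its ependymal and choroid plexus markers, with a summed 48.1 CPM against 1990 and 2181 CPM in the others. IP replicate 3 was also the lowest of its group, at 51.2 CPM against 121 and 229 CPM, so in the third pair IP was not below unbound. Without unbound replicate 3 the summed level of all snoRNA and scaRNA rows differed by a log2 value of -1.92, and without the third pair by -2.12, against -2.06 with all libraries.

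The rows were tested with all other genes in edgeR. The count filter, which needs about 10 reads in at least 3 libraries, was passed by 13 of the 111 rows, 6 Snord, 6 Snora and 1 Scarna. Of these, 12 passed through the unbound libraries while at least 1 IP library fell short, so neither their number nor their direction is evidence about the rows as a whole. Called as lower in IP were 9 rows and as higher 0, where 23.2% of all 16991 genes tested were lower and 21.1% higher. At an unadjusted p under 0.05 edgeR gave 0 of the 13 as higher, and DESeq2, which gave an adjusted p to 55 rows, called 19 lower and 1 higher, against 24.0% and 18.1% of all rows with an adjusted p. With no count filter, 88 rows were tested, and 23 were lower and 1, Snora16a, was higher, against 17.9% lower and 16.7% higher of 23086 rows. The median log2 fold change was then -3.21 for the 88 rows and -0.16 for all rows. Of the 88 rows, 53 had 0 reads in all IP libraries. Their fitted values depend on the prior count, so this median is not a measured size. Of the 9 rows called with the filter, 8 were also called without it. Leaving out unbound replicate 3 gave 8 lower and 0 higher of 13 rows with the filter, where 25.8% of all genes were lower.

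The reads were also described without a test, over tested and untested rows together. Of the 88 rows with a read, 48 had every unbound library above every IP library, 1 had the reverse and 39 overlapped, against 26.0% and 20.5% of all rows with a read. Reads in all 3 unbound libraries and 0 in all 3 IP libraries were found for 27 rows, against 2.43% of all rows with a read. Reads in unbound libraries alone were found for 53 rows, in both groups for 34 and in IP libraries alone for 1. Of all rows with a read, 10.7% had reads in unbound libraries alone and 2.16% in IP libraries alone. These shares of all rows were not matched for count. The median total was 8 reads for the 111 rows and 88 for all gene rows. Among the 34 rows with 1 to 9 reads in all, 33 had 0 reads in IP, against 59.7% of all rows with that few reads. The 34 together held 2 reads in IP and 132 in unbound libraries. The 2 IP reads were those of Snora5c.

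Snora31, an H/ACA snoRNA, was the row with the highest unbound level among the 13. It lies at chr14:75847905-75848034 (mm10, plus strand) in an intron of Tpt1, which encodes a translationally controlled tumour protein. It had 3, 1 and 4 reads in the IP libraries and 57, 73 and 121 in the unbound libraries, or 0.0713, 0.0321 and 0.0889 CPM against 1.43, 2.12 and 2.90 CPM. The groups were far apart, and it fell by 4.95 on the log2 scale (SE 0.59, edgeR adjusted p = 4.6e-04; adjusted p-values here are from its quasi-likelihood test, by Benjamini and Hochberg). The ratio of reads was 32.0 times higher in unbound RNA, with a 95% interval of 16.0 to 74.9 from counting error alone. It kept its call in all 15 alternative fits. Its host Tpt1 went the other way, with 20.5, 19.6 and 21.5 CPM in the IP libraries against 10.7, 13.4 and 16.8 CPM, a log2 fold change of 0.59 (edgeR adjusted p = 0.034) that lost its call in 8 of 15 alternatives. Per 1000 reads of Tpt1 there were 3.47, 1.64 and 4.14 reads of Snora31 in IP and 133, 158 and 173 in unbound libraries.

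Snora34 and Snora35 had no read in any IP library. Snora34 lies at chr15:98519716-98519853 (minus strand) in Kansl2, a subunit gene of a histone acetyltransferase complex, and overlaps the annotated microRNA gene Mir1291. It had 16, 12 and 22 reads in the unbound libraries, which was at least 17.0-fold higher than IP with the 3 IP libraries together set to 3 reads (edgeR adjusted p = 0.0034). Snora35 lies at chrX:146994381-146994508 (plus strand) in an intron of Htr2c, the serotonin receptor gene for type 2C. It had 22, 13 and 14 unbound reads, at least 16.6-fold higher than IP (edgeR adjusted p = 0.0037). Both kept their calls in all 14 alternatives that tested them. Neither host was lower in IP. Kansl2 had 12.4, 15.5 and 13.4 CPM in the IP libraries against 10.9, 11.8 and 10.6 CPM (log2 0.31, edgeR adjusted p = 0.165). Htr2c had 142, 135 and 72.4 CPM against 82.0, 59.8 and 66.5 CPM, with groups that overlapped (log2 0.75, edgeR adjusted p = 0.040), a call lost in 7 of 15 alternatives. Snora2b, a second row inside Kansl2 that was named after its values were seen, also had 0 IP reads, and 4, 6 and 4 in the unbound libraries.

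The 3 C/D snoRNAs inside Rpl23a, a ribosomal protein gene of the large subunit, did not share 1 pattern. Snord42b (chr11:78183056-78183124), Snord42a (chr11:78181299-78181363) and Snord4a (chr11:78181686-78181756) all lie on the minus strand. Snord42b had 38, 32 and 66 reads in IP and 25, 37 and 66 in unbound libraries, and its groups overlapped at 0.903 to 1.47 CPM and 0.626 to 1.58 CPM. Its log2 fold change of 0.05 (SE 0.48, edgeR adjusted p = 0.942) was smaller than the spread between libraries. Snord42a had 7, 2 and 8 reads in IP and 28, 29 and 32 in unbound libraries and fell by 2.44 (SE 0.58, edgeR adjusted p = 0.0094). Snord4a had 5, 0 and 4 against 41, 31 and 55 reads and fell by 3.83 (SE 0.76, edgeR adjusted p = 0.0041). Both calls stood in all 14 alternatives that tested them.

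Per 1000 reads of Rpl23a, Snord42b had 494, 615 and 688 reads in IP and 225, 416 and 418 in unbound libraries, while Snord42a had 90.9, 38.5 and 83.3 against 252, 326 and 203, and Snord4a 64.9, 0 and 41.7 against 369, 348 and 348. On this within-library scale Snord42b lay higher in IP and the other rows lower, with no overlap in any of the 3. Snord42b overlaps an annotated exon of Rpl23a, and Snord42a and Snord4a overlap an exon of Tlcd1 on the opposite strand. The Tlcd1 row fell by 3.11 (edgeR adjusted p = 2.5e-04), from 381, 248 and 521 unbound reads to 58, 24 and 54 in IP. No source used here gives the strand setting of the counting, so reads of Tlcd1 and of these snoRNAs cannot be told apart. Snord42a and Snord42b share an unbroken run of 18 bases, caaaggaaccactgatgc, which ends in the D box and the bases after it. Rpl23a has near-identical copies elsewhere, so its own row, at 1.67 to 3.79 CPM, is uncertain.

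**Figure D2:**
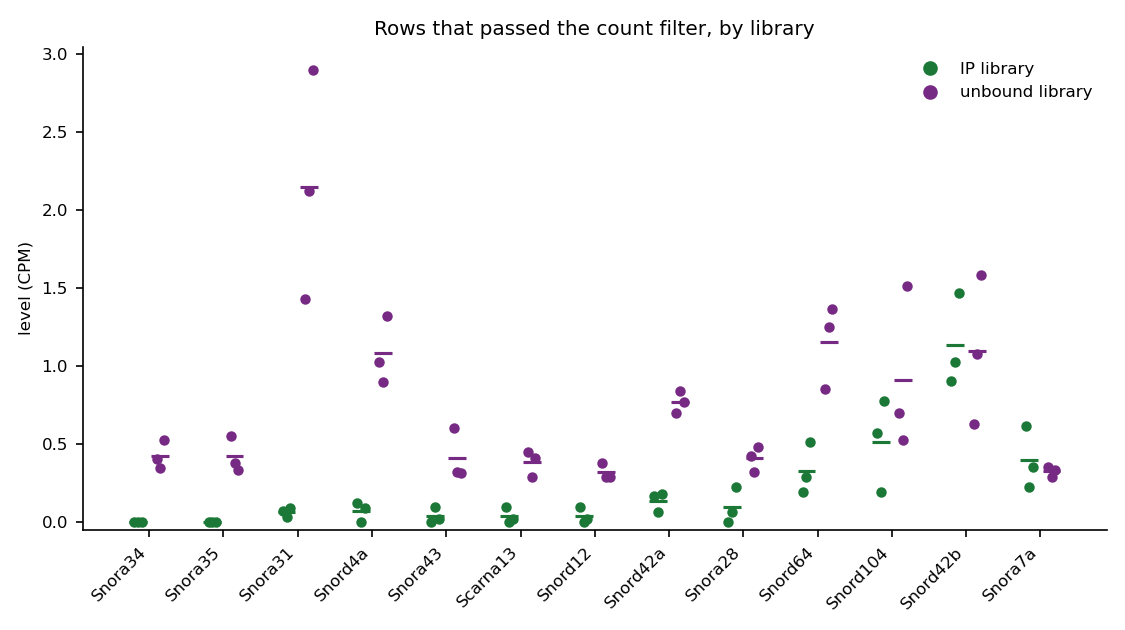
Level in CPM (linear axis) of the 13 rows that passed the count filter, ordered from the lowest to the highest log2 fold change, with 1 point per library and a bar at each group mean. Snora34 and Snora35 lie at 0 in all IP libraries, Snora31 has its unbound libraries between 1.43 and 2.90 CPM, and Snord104, Snord42b and Snora7a overlap between the groups.

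The calls of 3 further rows depended on single libraries. Snora43 (chr2:26637847-26637985, minus strand) had 0, 3 and 1 reads in IP and 24, 11 and 13 in unbound libraries and fell by 3.43 (SE 0.95, edgeR adjusted p = 0.0181). Scarna13, which lies in the long noncoding RNA Snhg10, had 4, 0 and 1 against 18, 10 and 17 reads and fell by 3.12 (SE 0.89, edgeR adjusted p = 0.0198). Snord12, in the long noncoding RNA Zfas1, had 4, 0 and 1 against 15, 10 and 12 reads and fell by 2.85 (SE 0.90, edgeR adjusted p = 0.0297). All 3 had every unbound library above every IP library. Of the 6 fits that left out a library, 3 passed for Scarna13, 3 for Snora43 and 2 for Snord12. Their values then ran from -4.58 (without IP replicate 1) to -2.65 (without IP replicate 2) for Scarna13, from -4.83 (without IP replicate 2) to -2.81 (without IP replicate 1) for Snora43 and from -4.31 (without IP replicate 1) to -2.38 (without IP replicate 2) for Snord12. Scarna13 also missed the threshold without the third pair (edgeR adjusted p = 0.0554), and Snord12 did so there (0.0686) and without the count filter (0.0643). The host Snhg10 rose by 1.17 on the log2 scale (edgeR adjusted p = 0.011; 0.63 and not passed with pan-neuronal scaling). Per 1000 Snhg10 reads Scarna13 had 5.90, 0 and 1.93 reads in IP and 73.2, 76.9 and 65.4 in unbound libraries. Snora43 lies inside the RefSeq gene Snhg7, which fell by 1.35 (edgeR adjusted p = 0.0025). Per 1000 Snhg7 reads Snora43 had 0, 33.0 and 6.02 reads in IP and 58.0, 40.0 and 30.3 in unbound libraries, and these overlapped.

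Snord64, a C/D snoRNA of the Prader-Willi region (chr7:59978808-59978874, minus strand, inside an exon of the GENCODE gene Gm38393), was lower in IP together with the long noncoding RNA around it. It had 8, 9 and 23 reads in IP and 34, 43 and 57 in unbound libraries, or 0.190, 0.289 and 0.511 CPM against 0.852, 1.25 and 1.37 CPM. The groups did not overlap, and it fell by 1.79 (SE 0.54, edgeR adjusted p = 0.026), a call that stood in 1 of the 6 fits that left out a library, with values from -2.24 (without IP replicate 3) to -1.49 (without IP replicate 1). The RefSeq gene Snhg14, which contains it, fell by 2.48 (edgeR adjusted p = 2.6e-04), from 3043, 3103 and 4469 reads to 707, 333 and 960. Per 1000 Snhg14 reads there were 11.3, 27.0 and 24.0 reads of Snord64 in IP and 11.2, 13.9 and 12.8 in unbound libraries, and these overlapped. Here the snoRNA row and its surrounding gene were both lower.

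The remaining 3 tested rows that did not pass were Snora28, Snord104 and Snora7a. Snora28, in Eif5, had 0, 2 and 10 reads in IP and 17, 11 and 20 in unbound libraries (log2 -2.02, SE 0.93, edgeR adjusted p = 0.107), and it passed without IP replicate 3 (-3.67, edgeR adjusted p = 0.0347), without the third pair (-3.60) and with pan-neuronal scaling (-2.57). Snord104 (chr11:106500993-106501062), which lies in no annotated GENCODE gene of its strand, had 24, 6 and 35 against 28, 18 and 63 reads (log2 -0.81, SE 0.65, edgeR adjusted p = 0.335). Snora7a (chr6:115807975-115808114), inside the ribosomal protein gene Rpl32, had 26, 7 and 16 against 14, 10 and 14 reads (log2 0.30, SE 0.58, edgeR adjusted p = 0.697). It overlaps an annotated exon of Rpl32, and per 1000 Rpl32 reads the groups overlapped at 2.04 to 4.71 and 3.28 to 4.92. With Snord42b, these rows held 51.4% ± 3.21 of all snoRNA and scaRNA reads in IP libraries and 15.5% ± 3.10 in unbound libraries. Snora64, in Rps2, was among the 10 rows with the highest mean level but did not pass the filter, with 4, 2 and 8 reads in IP and 18, 3 and 17 in unbound libraries.

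Per length, the order of the rows differed between the fractions. In IP libraries Snord42b led at 16.4 CPM per kilobase, followed by Snord104 at 7.34, Snord64 at 4.93, Snord49b at 3.16 and Snora7a at 2.85. In unbound libraries the order was Snord64 (17.3), Snora31 (16.5), Snord42b (15.9), Snord4a (15.2), then Snord104, and after it Snord42a, which alone stood at 11.9. In this unbound order, each step between neighbours was smaller than the SD of at least 1 of the pair. Snora31 stood at 0.493 CPM per kilobase in IP and Snord4a at 0.975.

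Snora16a was the row that lay higher in IP, and it was chosen after its values were seen. It lies at chr4:132309464-132309600 (plus strand) in the long noncoding RNA Snhg12, overlaps an annotated exon of that gene, and has 2 annotated entries. It had 10, 7 and 5 reads in the IP libraries and 0 in each unbound library, at least 7.20-fold higher in IP with the unbound libraries together set to 3 reads. It was too low for the count filter and passed without it (edgeR adjusted p = 0.0204). Of all rows with a read, 0.0953% had reads in all 3 IP libraries and 0 in all unbound libraries, a share not matched for count. Its neighbours in Snhg12 went the other way. Snora44 (chr4:132309941-132310069) had 0 reads in IP and 7, 2 and 10 in unbound libraries, and Snora61 (chr4:132310240-132310369) had 1, 0 and 0 against 6, 7 and 7. The fourth row of that gene, Snord99, was at 0 in every library. Snhg12 itself did not pass (log2 -0.26, edgeR adjusted p = 0.255) with 14.4, 14.7 and 17.7 CPM in the IP libraries against 17.4, 17.0 and 21.5 CPM. Reads of Snora16a and of the Snhg12 exon it overlaps cannot be told apart. Some may have been set aside as ambiguous, an entry that was larger in unbound libraries, so its 0 unbound reads are uncertain.

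**Figure D3:**
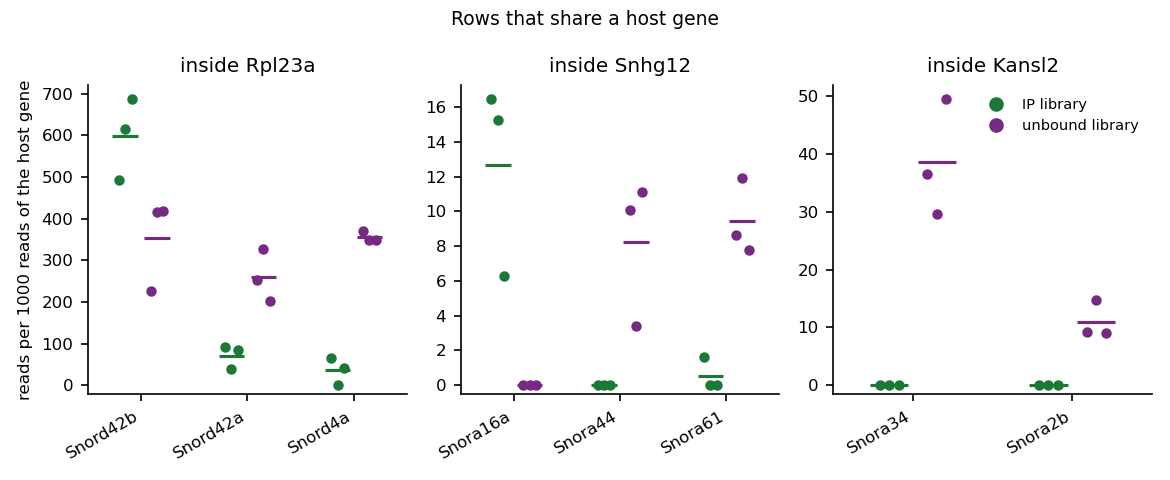
Reads of each small RNA row per 1000 reads of the gene that contains it, in each library, for rows inside Rpl23a, Snhg12 and Kansl2 (linear axes with different ranges, bars at group means). Snord42b and Snora16a lie higher in the IP libraries, and the other 6 rows lie higher in the unbound libraries.

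The other rows were low and mostly absent from IP. Rows with 0 IP reads, called as lower when no count filter was used and named after their values were seen, included Snord71 in Ap1g1 (9, 10 and 12 unbound reads), Snord52 (9, 8 and 10), Snora47 in Zbed3 (7, 6 and 14) and Snord47 in Gas5 (10, 4 and 10). Of the 23 rows called lower without the filter, 15 had 0 reads in every IP library, so their fitted fold changes depend on the prior count and only bounds can be given: at least 10.5-fold higher in unbound RNA for Snord71, 9.17-fold for Snord52 and Snora47 and 8.15-fold for Snord47. Apart from Snora16a, rows with more reads in IP than in unbound libraries did not pass. Snord49b had 13, 4 and 11 against 0, 4 and 10 reads, and Snord58b 3, 8 and 1 against 0, 2 and 2.

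SnoRNA rows and the genes around them were compared across all hosts. Of the 110 rows found in GENCODE M21, 104 lay inside an annotated gene of the same strand, 82 in a protein-coding gene and 22 in a long noncoding one. For the 46 rows with at least 10 reads and a listed host, the 39 distinct hosts had a median log2 fold change of 0.03, with 5 higher, 3 lower and 31 that did not pass, where 21.1% of all genes were higher and 23.2% lower. Their range was -1.41 to 1.17. With the libraries scaled on pan-neuronal markers, which lowers the median of all genes to -0.55, 0 of these hosts were higher and 21 lower, with a median of -0.51, where 4.42% of all genes were higher and 42.9% lower. The ratio of a row to its host within a library does not change with scaling. It lay lower in every IP library than in every unbound library for 31 of the 46 rows, higher for Snora16a and Snord42b, and overlapped for 13. Many of the 46 rows had 0 IP reads and reached 10 reads through the unbound libraries alone. The number that lay lower is therefore not evidence about the rows as a whole. No such ratio was computed for other genes. By CPM, 54 snoRNA and scaRNA rows had 10 reads or more. Of these, 40 lay lower in IP without overlap, 1 lay higher and 13 overlapped, and the same limit holds for them. Of all rows with 10 reads or more, 29.2% lay lower in IP without overlap and 23.6% higher. Snora43 and Snord64, whose listed host is a RefSeq gene alone, are not among the 46, and their ratios overlapped. Rows that overlap an annotated exon of another gene (57) summed to 2.78 ± 0.72 CPM in the IP libraries against 9.81 ± 1.88 CPM, 3.53 times higher unbound, and rows with no such overlap (53) to 1.36 ± 0.41 and 7.46 ± 0.93 CPM, 5.48 times higher. The overlapping rows include Snord42b, which held a mean of 28.0% of snoRNA and scaRNA reads in IP and 6.21% in unbound libraries. The sums by overlap were not computed without it. The overlapping rows may also lose reads to the ambiguous entry, which was larger in unbound libraries. The part of either in the split was not tested. A read on an intronic row can come from the mature small RNA or from unspliced host RNA, and these cannot be told apart here.

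**Figure D4:**
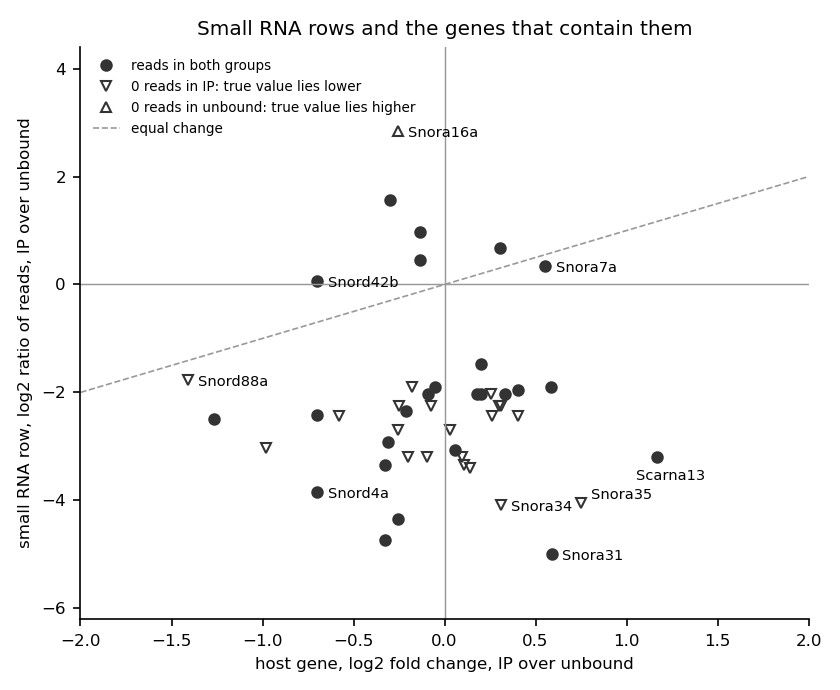
Log2 ratio of reads, IP over unbound, of 46 small RNA rows with at least 10 reads (vertical) against the log2 fold change of the gene that contains each (horizontal). Open triangles have 0 reads in 1 group and are bounds set with 3 reads, and the dashed line marks equal change. Most rows lie below the dashed line while their hosts lie between -1.41 and 1.17.

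Messages for the protein partners of these RNAs were read from a list of 24 genes for snoRNP core proteins and assembly factors. Of these, 14 rose in IP and 10 did not pass, where 21.1% of all genes rose, with a median log2 fold change of 0.51 against -0.01 for all genes. Nop10, a small core protein of H/ACA particles, averaged 171 ± 23.0 CPM in the IP libraries against 59.3 ± 11.0 CPM (log2 1.53, edgeR adjusted p = 4.2e-04). Nhp2l1, which binds the C/D box motif, rose by 1.07 on the log2 scale, and the assembly factors Znhit3 and Znhit6 by 0.87 and 0.88. Fibrillarin (Fbl) did not pass, at 0.32 (edgeR adjusted p = 0.494). With pan-neuronal scaling the list had 2 rises and 3 falls and a median of -0.03, where 4.42% of all genes rose and 42.9% fell, so its direction rests on the scaling.

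Of 21 listed long noncoding hosts, 10 fell and 2 rose (Snhg1 and Snhg3), with a median of -0.91, where 23.2% of all genes fell and 21.1% rose. The lowest adjusted p-values were those of Snhg11 (log2 -4.14), Meg3 (-4.52), Rian (-2.59) and Snhg14 (-2.48). Snhg11, Meg3 and Rian are also on the list of nuclear long noncoding RNAs above, so these lists are not separate. Gas5, host of many C/D snoRNAs, had 77.7, 65.7 and 95.5 CPM in the IP libraries against 152, 147 and 171 CPM. Of 50 tested coding hosts, 6 rose and 3 fell with a median of 0.15, both fewer than these shares of all genes would give. Blocking on the replicate number gave 13 higher and 3 lower, leaving out unbound replicate 3 gave 13 and 4, and pan-neuronal scaling 0 and 21. Among 13 listed rows for other structured small RNAs, 7 had a read and 1 was tested. That one, Rmrp, the RNA of the nuclear RNase MRP, had 22, 12 and 15 reads in IP and 77, 56 and 141 in unbound libraries and fell by 2.47 (SE 0.47, edgeR adjusted p = 0.0031).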

How the data were processed

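Each library came as 1 deposited file of unnormalized read counts for each gene. The submitters' processing notes name STAR 2.0.0e, HTSeq and the build mm10. No source used here gives the annotation, strand setting or overlap handling. Summary entries without a gene were left out of sizes and fits, and genes took a mean of 46.1% of all entries in each group. The tests used edgeR 4.0.16 (R 4.3.3) with library sizes over all gene rows, TMM scaling, filterByExpr defaults (minimum count 10, minimum total 15), robust quasi-likelihood fits on group, and Benjamini-Hochberg adjustment over 16991 genes at 0.05, checked on simulated data. Each standard error was derived from the log2 fold change and its F statistic. Alternatives were DESeq2 1.42.0, other scalings and filters, a replicate block, lane and libraries left out. Hosts are GENCODE M21 genes (GRCm38) that contain a row on its strand. RefSeq (GRCm38.p6) was used, without strand, where that gave none. Older symbols were matched through RefSeq synonyms.

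The members and lists were chosen with earlier results of these data known. Named were the 10 rows of highest mean CPM, called rows (up to 12 a direction), up to 5 tested rows that did not pass, tested Scarna rows, imprinted families and their hosts, and up to 4 genes of a list by adjusted p. Other names were chosen after values were seen. Over genes, the IP and unbound libraries that share a number deviated together from their groups, with correlations of 0.14, 0.16 and 0.21, so by a rule that asks for more than 0.1 the numbers were taken as pairs. Both libraries numbered 2 were on lane 4 and all others on lane 2, so for that pair a shared lane and a shared sample cannot be told apart. The main test does not use the pairs. With the replicate number as a block, 9 rows were lower and 0 higher, as in the main test.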

Additional observations from a re-analysis of the deposited data

How the results depend on the processing

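The count of snoRNA and scaRNA rows called lower was 9 and that called higher 0 with median-ratio size factors, library size alone, lane as a covariate and the replicate block, which left both counts as they were. These fits tested 13 rows, and 22.1% to 25.5% of all genes were lower. Without the count filter the counts were 23 and 1 of 88 rows, where 17.9% of all rows were lower. In DESeq2 they were 19 and 1 of 55 rows with an adjusted p, where 24.0% of all such rows were lower. With at least 1 CPM in 3 libraries, which left 2 rows, they were 1 and 0, where 23.1% of all genes were lower. Leaving out 1 library gave 7 to 10 lower and 0 higher of 13 to 21 rows tested, where 18.7% to 25.8% of all genes were lower. Leaving out the third pair gave 8 and 0 of 13 rows, where 27.3% of all genes were lower. Scaling on pan-neuronal markers gave 10 and 0 of 13 rows, and over all genes 751 higher (4.42%) and 7296 lower (42.9%). That scaling moved the log2 of IP over unbound for the summed level to -2.60 for all rows, -2.16 for Snord and -3.17 for Snora rows, against -2.06, -1.62 and -2.63. At a minimum of 10 reads in a library, 31 rows were counted in place of 88. Of the 9 called rows, Snora31, Snora34, Snora35, Snord42a and Snord4a kept their calls in every alternative that tested them. Depth limits what can be said of the 98 rows under the filter: 23 had 0 reads and 34 had 1 to 9.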
